A study of Mus musculus with 6 samples.

Results

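Alveolar fibroblast identity markers are genes whose RNA distinguishes the fibroblasts of the gas-exchange region of the mouse lung from those around airways and vessels. A set of 8 such genes, Tcf21, Npnt, Limch1, Inmt, Ces1d, Slc7a10, Macf1 and Cxcl14, was taken by symbol from a table of read counts for 43430 Ensembl gene IDs, and each matched 1 row. The RNA came from PDGFRA+ lung fibroblasts that were sorted by flow cytometry from male C57BL/6J mice aged 9 to 11 weeks. Hypercapnia libraries (M4, M5 and M6) were from 9 mice that breathed 10% CO2 at normal oxygen for 10 days, and room air libraries (M1, M2 and M3) were from 9 mice with no exposure (day 0). No transgene or deletion is named for either group. Each library held the pooled cells of 3 mice, so n is 3 separate pools per group and the spread averages over the mice inside a pool. The labels write the sort marker as PDGFR+ for the hypercapnia samples and as PDGFRa+ for the room air samples.

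Alveolar fibroblasts lie in the thin walls between air spaces next to epithelium and capillaries, and many of them store lipid. They are set apart from adventitial fibroblasts of the vessel cuffs and from fibroblasts around the airways by a transcription factor of mesenchymal development, matrix ligands, transporters and metabolic enzymes. Tcf21 encodes the transcription factor of the set, Npnt a matrix protein, Limch1 and Macf1 cytoskeletal proteins, Inmt and Ces1d enzymes, Slc7a10 an amino acid transporter and Cxcl14 a secreted chemokine.

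Promoter sequences are shown for the 2 markers that fell, Limch1 and Npnt, for Inmt, the most abundant of the 8, and for Cxcl14, whose difference had the opposite sign. They are RefSeq entries on GRCm38.p6, each covering 250 bases before to 50 bases after an annotated start on the gene's own strand, written 5′ to 3′. Of the 8 markers, 7 were matched to a RefSeq promoter, and Ces1d was not. Limch1 had 3 entries and Npnt 2, and only the entry nearest the annotated start of the gene was searched. Capitals mark matches to CANNTG, the E-box bound by basic helix-loop-helix factors such as TCF21, and to TATAAA, a core promoter element, searched on both strands. The windows are chr5:66745639-66745938 on the plus strand for Limch1, and on the minus strand chr3:132950242-132950541 for Npnt, chr6:55174941-55175240 for Inmt and chr13:56296502-56296801 for Cxcl14.
Limch1: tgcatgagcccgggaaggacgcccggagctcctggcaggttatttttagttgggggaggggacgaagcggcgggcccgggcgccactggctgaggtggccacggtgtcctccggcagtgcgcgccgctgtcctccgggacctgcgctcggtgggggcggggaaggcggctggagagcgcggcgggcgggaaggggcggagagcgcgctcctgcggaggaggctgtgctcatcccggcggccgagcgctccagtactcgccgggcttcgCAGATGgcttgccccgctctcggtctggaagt
Npnt: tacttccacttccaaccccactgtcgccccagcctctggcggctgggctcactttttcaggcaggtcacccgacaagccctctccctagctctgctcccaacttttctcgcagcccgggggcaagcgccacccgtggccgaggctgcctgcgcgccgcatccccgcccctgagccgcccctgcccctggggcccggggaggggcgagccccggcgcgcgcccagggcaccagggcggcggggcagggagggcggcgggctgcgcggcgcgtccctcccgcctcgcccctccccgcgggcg
Inmt: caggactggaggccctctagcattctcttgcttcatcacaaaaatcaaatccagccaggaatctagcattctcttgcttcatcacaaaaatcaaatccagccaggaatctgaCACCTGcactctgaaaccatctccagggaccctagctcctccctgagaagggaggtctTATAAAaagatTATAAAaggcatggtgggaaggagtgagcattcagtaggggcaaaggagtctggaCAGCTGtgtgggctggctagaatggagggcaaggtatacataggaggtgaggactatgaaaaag
Cxcl14: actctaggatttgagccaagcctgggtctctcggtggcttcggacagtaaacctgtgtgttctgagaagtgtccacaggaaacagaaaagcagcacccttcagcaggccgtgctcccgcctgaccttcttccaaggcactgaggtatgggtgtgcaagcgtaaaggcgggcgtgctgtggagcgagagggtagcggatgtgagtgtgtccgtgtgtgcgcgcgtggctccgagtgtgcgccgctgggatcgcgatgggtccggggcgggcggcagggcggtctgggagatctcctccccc

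The Limch1 window held 1 CANNTG match, CAGATG at position 19 after the start, and the Npnt and Cxcl14 windows held none. Inmt held CANNTG matches 138 and 14 bases before the start and TATAAA matches 80 and 69 bases before it. Among the other matched markers Macf1 held 3 CANNTG matches, and Tcf21 and Slc7a10 held none. Thus 3 of 7 marker windows had a CANNTG match, against 72.3% of all 32851 promoters of the same length. TATAAA was in 1 of 7 marker windows, against 13.6% of all promoters. The palindromic form CACGTG was in no marker's window and in 7.15% of all promoters. These matches describe letters in a window and not binding.

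Total counts ran from 9009124 to 10198336 in the hypercapnia libraries and from 8999780 to 9759770 in the room air libraries. CPM values are counts scaled to a common library size with TMM composition factors. The label of the sort was checked against marker genes. Pdgfra averaged 2966 ± 419 CPM in hypercapnia and 3556 ± 208 CPM in room air (SD, n = 3 each; log2 fold change -0.26, edgeR adjusted p = 0.383). Col1a1 averaged 4933 ± 478 CPM in hypercapnia and 5069 ± 285 CPM in room air. The leukocyte marker Ptprc had 2 counts over all 6 libraries, and the epithelial marker Epcam at most 19 counts in any library. Other genes of these cell types had more reads. The airway gene Scgb1a1 had 1283 to 4654 counts per library, the alveolar type 2 gene Sftpc 462 to 2020 and the leukocyte gene Lyz2 95 to 596. The endothelial marker Pecam1 was present at 390, 306 and 227 CPM in M4, M5 and M6, against 251, 197 and 56.6 CPM in M1, M2 and M3.

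All 8 markers were well covered, with between 1283 counts (Slc7a10 in M4) and 94473 counts (Inmt in M6) per library, and all passed the filter on low counts. Together they took 2.14%, 2.06% and 2.39% of the counts in M4, M5 and M6, against 2.51%, 2.45% and 2.74% in M1, M2 and M3. The shares did not overlap between groups. Most of these counts were those of Inmt, Npnt and Macf1, and Inmt and Macf1 overlapped between groups by CPM. Of single tested genes 18% were separated one way or the other, and how often sums of other genes separate was not computed.

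Levels were compared between genes per length, as TPM, which divides each count by the summed exon length and scales every library to the same sum. Inmt was the highest of the 8, at 18532 ± 2995 TPM in hypercapnia and 19327 ± 1667 TPM in room air, and ranked 3 of the 13005 tested genes by level. Npnt followed at 3747 ± 196 TPM in hypercapnia and 4819 ± 143 TPM in room air. Cxcl14 came next at 2467 ± 127 TPM in hypercapnia and 1942 ± 244 TPM in room air. These 3 genes held the first 3 places of the set under either condition. Ces1d stood at 1567 ± 131 TPM in hypercapnia and 1545 ± 176 TPM in room air. Tcf21 reached 755 ± 57.4 TPM in hypercapnia and 973 ± 109 TPM in room air. Macf1 and Limch1, the genes with the longest spans of the set, came below these. Macf1 was at 637 ± 52.9 TPM in hypercapnia and 773 ± 104 TPM in room air. Limch1 was at 608 ± 58.0 TPM in hypercapnia and 857 ± 42.2 TPM in room air. Slc7a10 was the lowest at 300.4 ± 41.4 TPM in hypercapnia and 440.3 ± 67.3 TPM in room air, and still ranked 359 of the 13005 genes. In hypercapnia the ranges of Tcf21 and Macf1, and of Macf1 and Limch1, overlapped, whereas in room air those of Tcf21 and Limch1, and of Limch1 and Macf1, overlapped. All other neighbours in the order were separate in each group. Summed exon length counts exons that not every transcript uses, so the TPM of genes with many isoforms may be understated.

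Under hypercapnia 2 of the 8 markers, Limch1 and Npnt, fell, none rose and 6 did not pass the test (edgeR quasi-likelihood F-test with Benjamini-Hochberg adjustment over 13005 genes, adjusted p under 0.05). Over all tested genes 1.22% were called, 0.7% lower and 0.523% higher, that is 91 genes lower and 68 higher. This split turned with the scaling, to 75 lower and 97 higher without composition factors and to 62 lower and 84 higher with summed pan-fibroblast counts as library size. The fold change was negative for 7 of the 8 markers (6 without composition factors and 5 with the endothelial covariate) and positive for Cxcl14, with a median log2 fold change of -0.40, against 0.01 over all tested genes. For 4 markers, Tcf21, Npnt, Limch1 and Slc7a10, every hypercapnia library was below every room air library, and 8.74% of all tested genes showed that separation. No marker was separated upward, against 9.28% of all tested genes, so that 18% were separated one way or the other. Some alternatives called more markers and more genes of all: without a low-count filter 5 of 8 were called against 3.62% of all genes, with DESeq2 4 against 3.34%, with robust dispersion 4 against 1.96% and with limma-voom 3 against 1.51%. In bulk RNA of sorted cells, fewer cells of a type and less RNA per cell cannot be told apart.

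**Figure D1:**
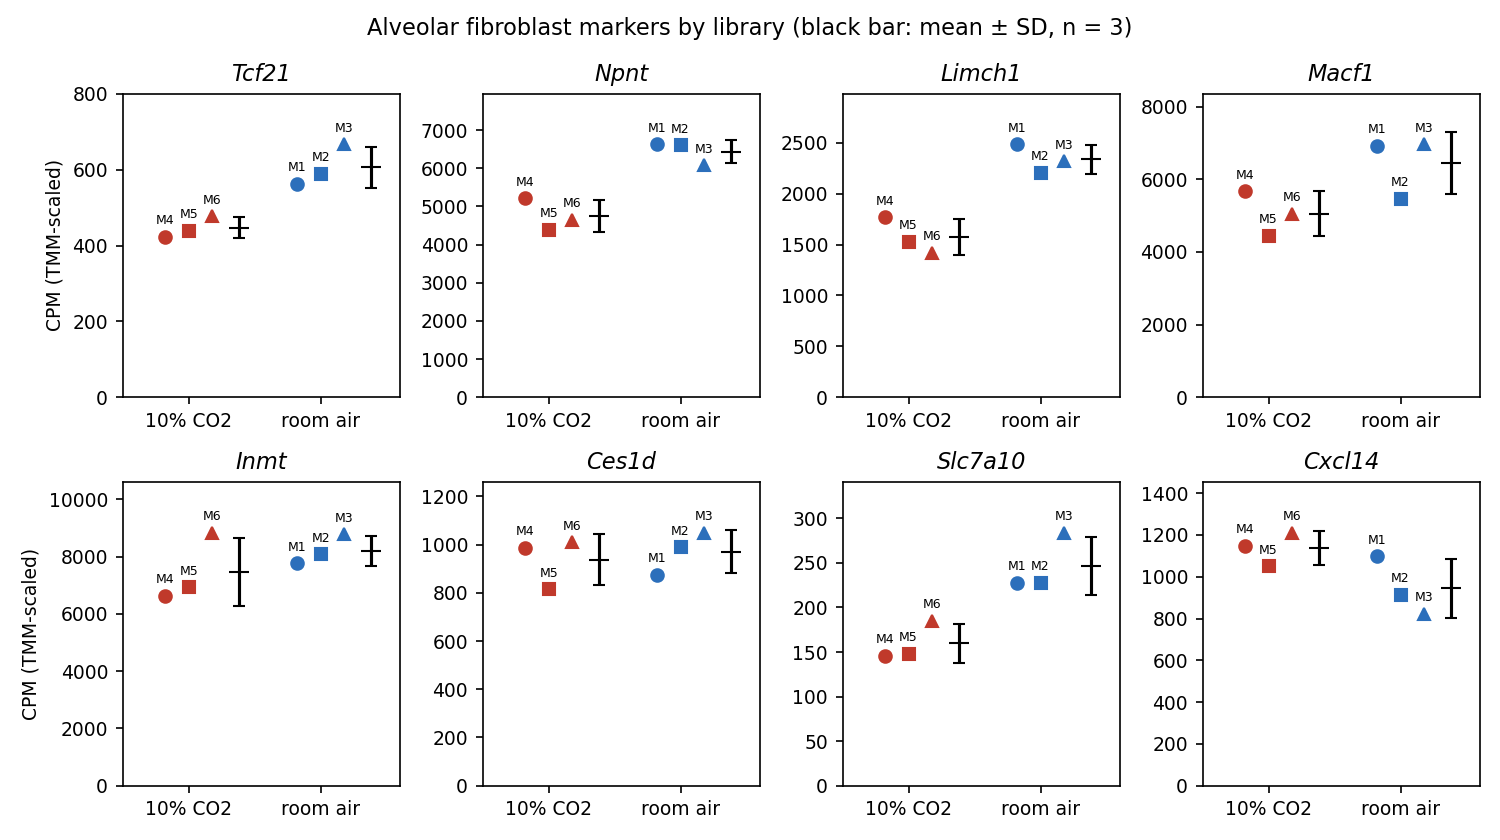
TMM-scaled CPM of the 8 markers, 1 panel per gene with its own axis. Points are libraries, with hypercapnia (10% CO2) left of room air, and bars show the mean with its SD (n = 3 each). Tcf21, Npnt, Limch1 and Slc7a10 do not overlap between the groups, and the other 4 do.

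Tcf21, the basic helix-loop-helix factor required for lung mesenchyme development (ENSMUSG00000045680, GRCm38 chr10:22817281-22820174, minus strand), had 423, 439 and 477 CPM in M4, M5 and M6, against 563, 589 and 668 CPM in M1, M2 and M3. All hypercapnia libraries were below all room air libraries, and the closest pair was M6 and M1. The means were 446 ± 27.6 CPM in hypercapnia and 607 ± 54.3 CPM in room air, a difference of -26.4%. The log2 fold change of -0.44 ± 0.11 (SE) did not pass the test over all genes (edgeR adjusted p = 0.101). DESeq2 called it (adjusted p = 0.0079), as did edgeR with robust dispersion (0.0421) and without a low-count filter (0.0228), within a range from 0.0079 to 0.357 over 16 alternatives.

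Npnt encodes nephronectin, a matrix ligand of the integrin heterodimer that contains the product of Itga8 (ENSMUSG00000040998, chr3:132881745-132950291, minus strand). It had 5209.7, 4393 and 4649.8 CPM in M4, M5 and M6, against 6635, 6601 and 6087 CPM in M1, M2 and M3. The highest hypercapnia library, M4, was below the lowest room air library, M3. Npnt averaged 4751 ± 418 CPM in hypercapnia and 6441 ± 307 CPM in room air, and fell by 0.44 ± 0.09 on the log2 scale (edgeR adjusted p = 0.0474). The call was close to the threshold and was lost when any single library other than M4 was left out, with adjusted p of 0.101 without M1, 0.260 without M2, 0.0540 without M3, 0.257 without M5 and 0.155 without M6. It was kept at 0.0251 without M4. Itga8, the partner integrin subunit, had a log2 fold change of -0.31 and did not pass the test.

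Limch1 encodes a protein with LIM and calponin homology domains that promotes non-muscle myosin II activity in human cell lines (ENSMUSG00000037736, chr5:66745827-67057158, plus strand). Its counts before scaling were nearly level inside each group, at 15562, 15575 and 15200 in M4, M5 and M6, against 21133, 21064 and 21888 in M1, M2 and M3. After scaling it had 1770.2, 1530.4 and 1422 CPM in M4, M5 and M6, against 2489, 2209 and 2319 CPM in M1, M2 and M3. All room air libraries were above all hypercapnia libraries on either scale. Limch1 averaged 1574 ± 178 CPM in hypercapnia and 2339 ± 141 CPM in room air, a difference of -32.7%, and fell by 0.57 ± 0.11 on the log2 scale (edgeR adjusted p = 0.0368). Here too the call held without M4 (adjusted p = 0.0199). It was lost at 0.0861 without M1, 0.153 without M2, 0.0592 without M3, 0.186 without M5 and 0.135 without M6, while the log2 fold change stayed between -0.69 and -0.50 over the 16 alternatives.

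Macf1 encodes a spectraplakin that links actin filaments to microtubules and is expressed in many cell types (ENSMUSG00000028649, chr4:123349633-123684360, minus strand). It had 5666, 4444 and 5044 CPM in M4, M5 and M6, against 6915, 5468 and 6967 CPM in M1, M2 and M3. The groups overlapped because the room air library M2 lay below the hypercapnia library M4. With means of 5052 ± 611 CPM in hypercapnia and 6450.1 ± 851 CPM in room air, the log2 fold change of -0.35 ± 0.12 did not pass the test (edgeR adjusted p = 0.232).

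Inmt encodes indolethylamine N-methyltransferase, which methylates tryptamine and related amines (ENSMUSG00000003477, chr6:55170626-55175043, minus strand). It had 6627, 6932 and 8839 CPM in M4, M5 and M6, against 7761, 8089 and 8782 CPM in M1, M2 and M3. The hypercapnia library M6 was the highest of all 6 libraries, while M4 and M5 were the lowest. The means were 7466 ± 1199 CPM in hypercapnia and 8210.4 ± 521 CPM in room air, and the log2 fold change was -0.14 ± 0.11 (edgeR adjusted p = 0.720). Its sign turned, to 0.015, when the endothelial level was a covariate.

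Ces1d, a carboxylesterase known to hydrolyse triacylglycerol in mouse liver and fat (ENSMUSG00000056973, chr8:93166068-93197838, minus strand), had 986, 815 and 1010.5 CPM in M4, M5 and M6, against 875, 989 and 1050.1 CPM in M1, M2 and M3. The groups overlapped throughout. Means were 937 ± 107 CPM in hypercapnia and 971 ± 89.1 CPM in room air, a log2 fold change of -0.05 ± 0.12 (edgeR adjusted p = 0.927) whose sign turned under several alternatives. The other Ces1 genes had few reads: between 14 and 45 counts in all per library, so that Ces1d held 99.5% to 99.8% of the counts of the family. Of the 50-base words in its exons 1.08% also occurred in Ces1b, Ces1f or Ces1g.

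Slc7a10 encodes the neutral amino acid transporter Asc-1 (ENSMUSG00000030495, chr7:35186385-35201114, plus strand). It had 146, 148 and 185 CPM in M4, M5 and M6, against 228, 228 and 284 CPM in M1, M2 and M3. Every hypercapnia library was below every room air library, with M6 and M3 the highest of their groups. Slc7a10 averaged 159.7 ± 22.1 CPM in hypercapnia and 247 ± 32.4 CPM in room air, a difference of -35.2%. Its log2 fold change of -0.63 ± 0.14 was the most negative of the 8 but did not pass the test (edgeR adjusted p = 0.0674). It was called by DESeq2 (adjusted p = 0.0012), by limma-voom (0.0400) and by edgeR with robust dispersion (0.0193) and without a low-count filter, and the largest adjusted p over the 16 alternatives was 0.287. Of its exonic bases 377 (17.9%) are shared with Lrp3 on the opposite strand, and the strand setting of the counting is not given in the sources used here, so reads there could belong to either gene. No other marker shares exonic bases with another gene in the annotation. Lrp3 itself averaged 77.7 ± 1.74 CPM in hypercapnia and 84.9 ± 14.4 CPM in room air, with overlapping groups.

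Cxcl14, a chemokine secreted by fibroblasts and epithelia (ENSMUSG00000021508, chr13:56288643-56296551, minus strand), had 1147, 1051 and 1211 CPM in M4, M5 and M6, against 1098, 914 and 823 CPM in M1, M2 and M3. The room air library M1 lay above the hypercapnia library M5, so the groups overlapped. Cxcl14 averaged 1136 ± 80.7 CPM in hypercapnia and 945 ± 140.1 CPM in room air. The log2 fold change of 0.27 ± 0.12 did not pass the test (edgeR adjusted p = 0.434), and lay between 0.12 and 0.39 over the 16 alternatives, without a call in any.

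**Figure D2:**
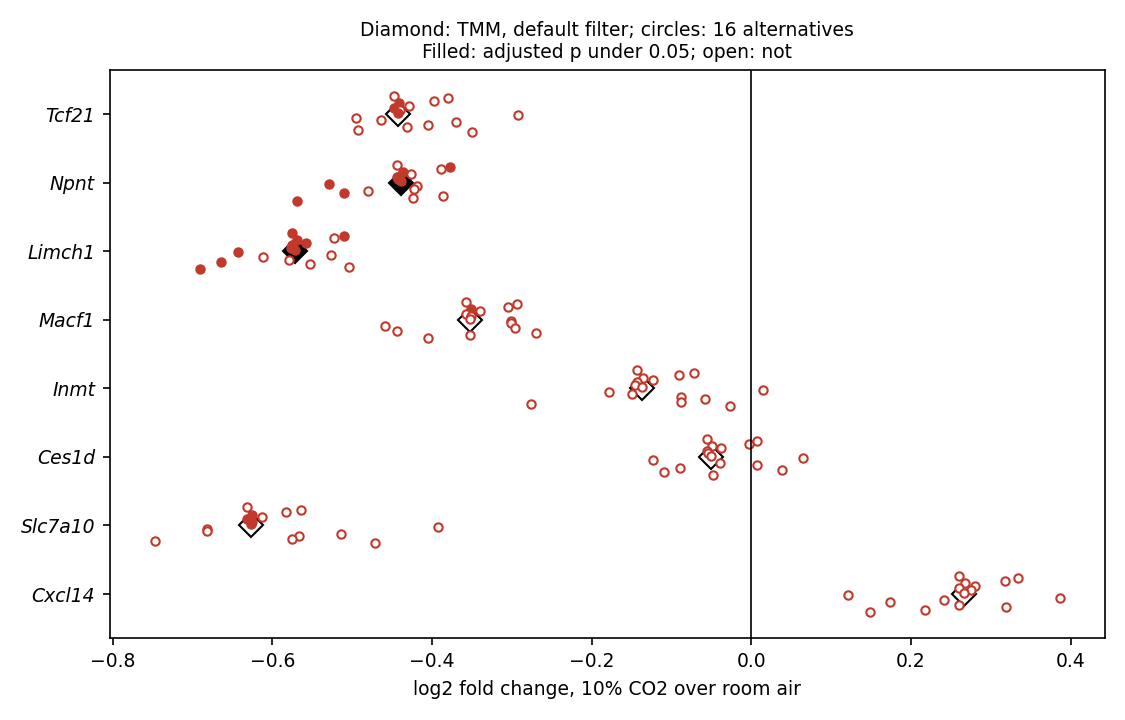
Log2 fold change (10% CO2 over room air) of the 8 markers under the TMM fit (diamonds) and 16 alternatives (circles), filled where the adjusted p was under 0.05. Limch1, Npnt, Tcf21, Macf1 and Slc7a10 stay below 0 and Cxcl14 above 0 under all 16, while Inmt and Ces1d cross 0.

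Because scaling shifts all genes of a library together, the markers were also set against each other as ratios of counts inside each library, which need no scaling. Of the 28 pairs, 11 did not overlap between groups. The pairs reuse the same 8 genes and are not independent, and the share over pairs of all tested genes was not computed. With 3 libraries against 3 the exact two-sided permutation test cannot go below 0.1, so no ratio could pass 0.05. The Limch1 to Cxcl14 ratio was 1.54, 1.46 and 1.17 in M4, M5 and M6, against 2.27, 2.42 and 2.82 in M1, M2 and M3. The Npnt to Cxcl14 ratio was 4.54, 4.18 and 3.84 in M4, M5 and M6, against 6.04, 7.23 and 7.39 in M1, M2 and M3. Both ratios were lower in every hypercapnia library, by 0.85 and 0.72 on the log2 scale in the means. The Inmt to Slc7a10 ratio was 45.4, 46.8 and 47.7 in M4, M5 and M6, against 34.1, 35.5 and 30.9 in M1, M2 and M3, higher in every hypercapnia library although both genes had negative fold changes. In contrast, the ratios of Tcf21 to Npnt and of Npnt to Limch1 overlapped between groups. Set over Pdgfra, the gene of the sort, Limch1 was at 0.527, 0.508 and 0.563 in M4, M5 and M6, against 0.673, 0.605 and 0.699 in M1, M2 and M3. Cxcl14 over Pdgfra was at 0.341, 0.349 and 0.479 in M4, M5 and M6, against 0.297, 0.250 and 0.248 in M1, M2 and M3. Limch1 was thus separated downward and Cxcl14 upward relative to Pdgfra, and the other 6 markers overlapped on this ratio. Pdgfra itself had a log2 fold change of -0.26 (edgeR adjusted p = 0.383), and a lower denominator raises such ratios in hypercapnia. By CPM, Cxcl14 overlapped between groups. The share of all tested genes separated relative to Pdgfra was not computed either.

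Inside each group the markers did not share 1 order of libraries. Tcf21, Inmt and Slc7a10 were highest in M6 among the hypercapnia libraries and in M3 among the room air libraries, whereas Limch1 and Npnt were highest in M4 and M1. Macf1 was highest in M4 and M3, and Ces1d in M6 and M3. The mean log2 CPM of 18 endothelial genes was 7.54, 7.27 and 6.88 in M4, M5 and M6, against 6.88, 6.65 and 5.10 in M1, M2 and M3, so M6 and M3 were the libraries with the least endothelial RNA in their groups and M3 stood far below the rest. With the endothelial level as a covariate the log2 fold change was -0.39 for Slc7a10 and -0.29 for Tcf21, against -0.63 and -0.44 without it. Neither passed the test in that fit. For the called markers the log2 fold change was -0.64 for Limch1 (edgeR adjusted p = 0.0302) and -0.53 for Npnt (0.0266), against -0.57 and -0.44 without the covariate. The endothelial level was on average higher in hypercapnia and by far lowest in M3. With 6 libraries, this fit therefore cannot fully tell group and endothelial level apart. Without M3 and M4, the extreme libraries for endothelial RNA, the log2 fold change was -0.69 for Limch1 and -0.57 for Npnt. In the same fit it was -0.47 for Slc7a10 and -0.35 for Tcf21.

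**Figure D3:**
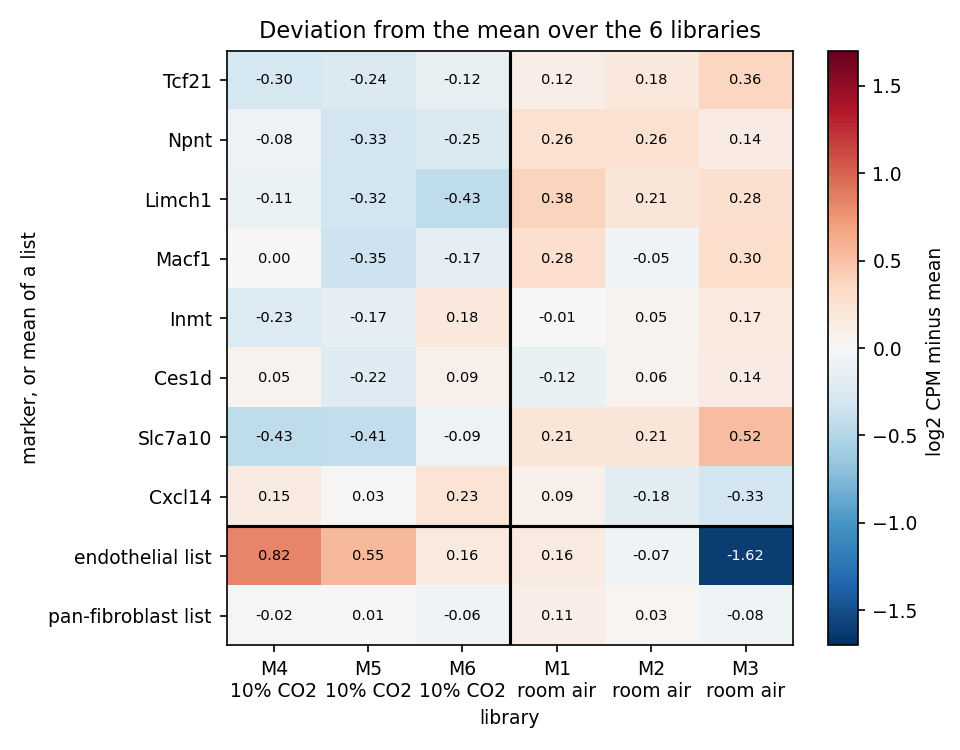
Log2 CPM of each marker minus its mean over the 6 libraries, with the means of the endothelial and pan-fibroblast lists below; hypercapnia libraries (M4 to M6) are left of room air libraries (M1 to M3). The endothelial row runs from 0.82 in M4 to -1.62 in M3, and the markers differ in which library of a group is highest.

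The mean centred profile of the 8 markers served to measure likeness, as the root mean square (RMS) difference over the 6 libraries in log2 CPM. Tcf21 was nearest to it at 0.11, and Cxcl14 farthest at 0.31. Among the 10745 other genes that averaged 5 CPM or more, the profiles most like it were those of Pja1 (0.036), Dpep1 (0.039), Nfyc (0.040), Golga7 (0.041) and Psme3 (0.042). None of these 5 genes passed the test, and their log2 fold changes lay between -0.36 and -0.24. Negative values of this size follow from the choice by likeness to a profile that was lower in hypercapnia.

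A further 23 genes associated with alveolar or lipid-storing fibroblasts were all tested. Of these 6 fell (0.7% of all tested genes were called lower), none rose and 17 did not pass, 20 of the 23 fold changes were negative, and the median log2 fold change was -0.33. Every hypercapnia library was below every room air library for 14 of the 23, against 8.74% of all tested genes. This list was chosen with earlier results of these data known, so its contrast with all genes is not independent support. Gyg, the glycogenin that primes glycogen, averaged 293.5 ± 17.4 CPM in hypercapnia and 567 ± 39.7 CPM in room air (log2 fold change -0.95 ± 0.11, edgeR adjusted p = 0.0038). Col13a1, a transmembrane collagen, averaged 333 ± 22.5 CPM in hypercapnia and 617 ± 66.6 CPM in room air (-0.89 ± 0.12, edgeR adjusted p = 0.0077). Fgfr4, a fibroblast growth factor receptor (-0.63 ± 0.10), Scube2, a secreted carrier of hedgehog ligands (-0.71 ± 0.11), and Lpl, lipoprotein lipase (-0.81 ± 0.13), each had an edgeR adjusted p of 0.0181. Slc38a5, a glutamine transporter, had a log2 fold change of -0.51 ± 0.10 (edgeR adjusted p = 0.0455). These 6 changes were larger than that of Npnt on the log2 scale. The 3 positive differences were those of Mfap4 (0.08), Adh1 (0.19) and Rarb (0.20), none of which passed; Rarb had 2 to 25 counts per library, and 38.4% of its exonic bases are shared with other genes. Gyg was called in all 16 alternatives. Only Gyg was called without M2 or without M5, and only Gyg and Col13a1 without M6, the adjusted p of the others then being between 0.0574 and 0.21. Scube2 also lost its call without M1 (0.0550), and Slc38a5 lost its call without any single library (0.0750 to 0.21).

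**Figure D4:**
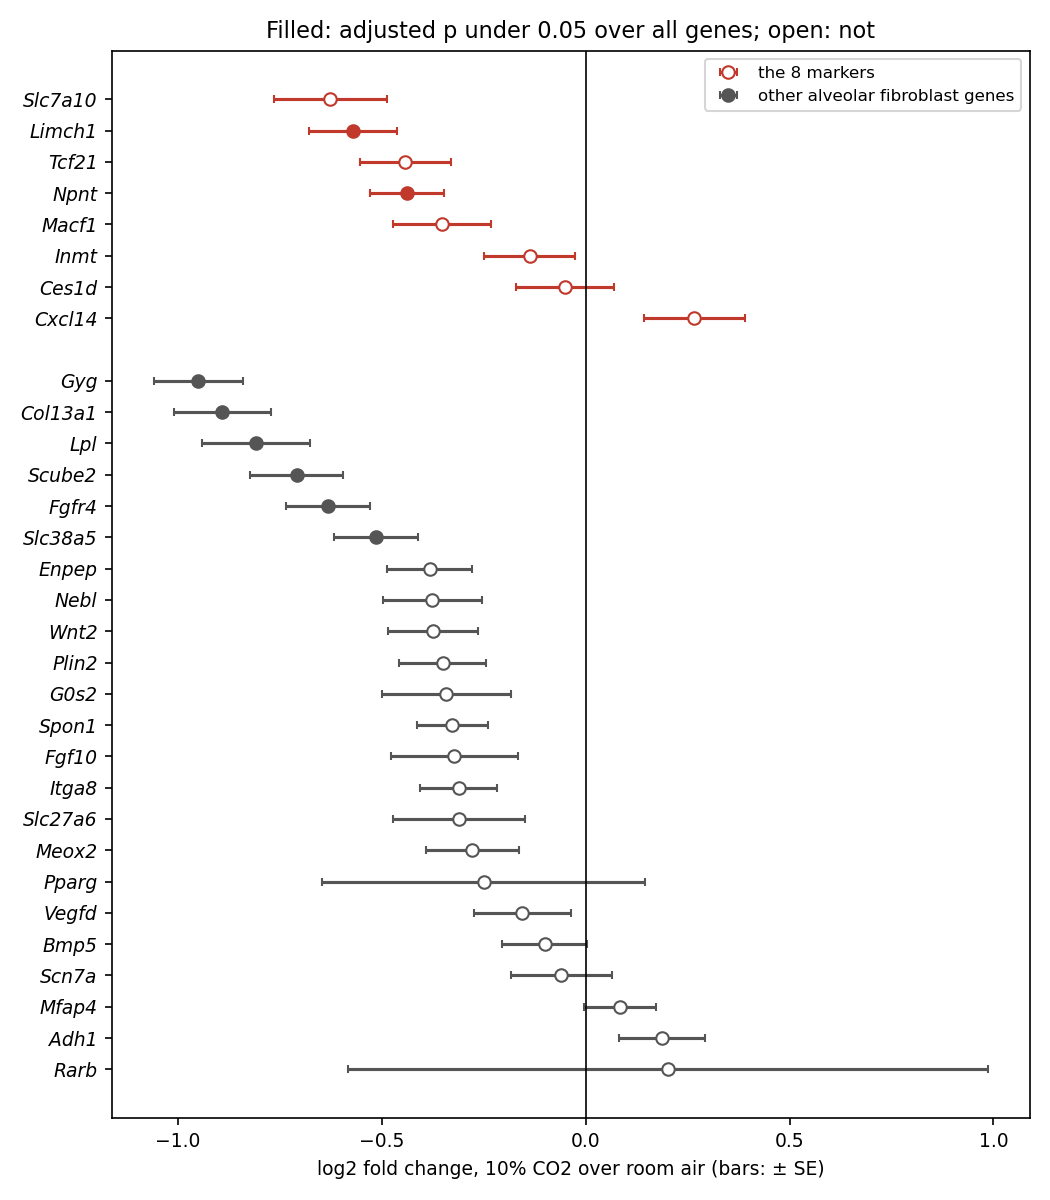
Log2 fold change (10% CO2 over room air) with its SE for the 8 markers (top) and 23 other genes associated with alveolar fibroblasts (below); filled points had an edgeR adjusted p under 0.05 over all tested genes. Of the 8 markers 7 lie below 0, and of the 23 other genes 20 do.

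Genes that mark other lung fibroblasts and cell types were counted in the same fit. In it 0.523% of all tested genes were called higher and 0.7% lower, with a median log2 fold change of 0.01. Among 18 adventitial fibroblast genes 15 fold changes were positive, with a median log2 fold change of 0.45, and 1 gene rose: Il33, an alarmin cytokine, at 50.9 ± 9.08 CPM in hypercapnia and 24.3 ± 6.55 CPM in room air (1.07 ± 0.21, edgeR adjusted p = 0.0420, and 0.0588 to 0.195 without M1, M2, M3, M5 or M6). Without M3 and M4, a fit of M5 and M6 against M1 and M2 that was added after the data were seen, 7 of the 18 adventitial genes rose. In that fit 0.948% of all tested genes rose. That fit called 2.94% of all tested genes in either direction, against 1.22% with all libraries. The summed level of that list, 31983 to 35982 CPM in hypercapnia and 34180.2 to 38567 CPM in room air, was mostly Gsn, at 27720.3 to 29825 CPM in hypercapnia and 30264 to 34099.8 CPM in room air. Without Gsn the sums were 4263, 6157 and 5662 CPM in M4, M5 and M6, against 3916, 4467 and 4263 CPM in M1, M2 and M3. The groups still overlapped, through M4. The fit without M3 and M4 thus left out the hypercapnia library that overlapped room air on this sum. Among 5 tested genes of airway-associated fibroblasts the median was 0.64 and 1 rose: Aspn, a small proteoglycan, at 72.4 ± 10.4 CPM in hypercapnia and 37.1 ± 9.69 CPM in room air (0.97 ± 0.19, edgeR adjusted p = 0.0410, and 0.0691 to 0.201 without M2, M3, M4, M5 or M6). None of 12 pan-fibroblast genes passed, their median being -0.04 (0.029 without composition factors), with Col6a3 at -0.38, Pdgfra at -0.26 and Col1a2 at 0.19. Of 5 pericyte genes tested none passed, with Abcc9 at 0.54, Kcnj8 at 0.73 and Notch3 at 0.46, nor did any of 5 genes of contractile cells, with Myh11 at -0.95, Des at -0.42 and Tagln at -0.37.

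All 18 endothelial genes had positive fold changes and none passed the test, with a median log2 fold change of 0.88 (0.31 without M3 and M4, when 16 of 18 were positive); Egfl7 stood at 0.88, Erg at 1.30 and Ramp2 at 0.99. Their summed level was 3138 to 5058 CPM in hypercapnia and 888 to 3169 CPM in room air, and no gene of the list was at 0. No epithelial gene passed. The summed alveolar type 2 level was 231 to 402 CPM in hypercapnia and 146 to 314 CPM in room air (Abca3 0.36, Etv5 0.36, Sftpc 0.56). The summed level of the alveolar type 1 list was 525 to 621 CPM in hypercapnia and 455 to 618 CPM in room air, of which Vegfa and Clic5 made up 425 to 516 CPM in hypercapnia and 376 to 509 CPM in room air. Ager, Rtkn2, Aqp5 and Cldn18 together reached 25.7, 10.0 and 12.5 CPM in M4, M5 and M6, against 49.2, 30.1 and 12.2 CPM in M1, M2 and M3 (Pdpn 0.60, Ager -0.90, and Rtkn2 with 12, 0 and 5 counts in M4, M5 and M6, against 51, 15 and 16 in M1, M2 and M3). All 6 tested airway epithelial genes had negative fold changes (Scgb1a1 -0.70, Cyp2f2 -0.65, Scgb3a2 -0.93), with sums of 147 to 354 CPM in hypercapnia and 330.1 to 558 CPM in room air. Among the mesothelial genes Upk1b, a uroplakin, fell, at 140.3, 119.6 and 149.8 CPM in M4, M5 and M6, against 214, 205 and 259 CPM in M1, M2 and M3 (-0.73 ± 0.13, edgeR adjusted p = 0.0317, and 0.0539 to 0.164 without any single library), and the other 4 tested were positive. These positive signs depended on the libraries. Without M3 and M4 only 1 of the 5 tested mesothelial genes was positive, and the median log2 fold change was -0.23, against 0.90 with all libraries. Of 10 leukocyte genes 5 were at 0 in every library and 2, Lyz2 (0.36) and Cd68 (0.03), were tested without a call; no red blood cell gene had enough counts to be tested. Among the genes named here Tagln shares 67.9% of its exonic bases with other genes, Ramp2 33.4%, Cyp2f2 13.5% and Egfl7 11.2%, so their counts are uncertain. The part of these other cells' RNA in the marker differences was not tested.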

How the data were processed

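The values are raw counts of reads per gene as deposited by the authors, whole numbers without normalization, in a single table whose 6 columns name the group. The numbers in the column names differ from those in the sample titles, so each column was assigned to its group only. HTSeq, TopHat2 2.1.0, FastQC, bcl2fastq 2.17.1.14 and the build mm10 are named in the submitters' processing notes. How strand was treated, which annotation was used and how reads were filtered is not given in the sources used here. The labels name an average number of aligned reads below the total counts found, and this was not resolved. No column was left out.

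Symbols (for 42546 of 43430 IDs), positions and exon lengths came from GENCODE M21, on GRCm38. Counts were tested with edgeR 4.0.16 in R 4.3.3: TMM factors (0.943 to 1.05), the default filter by group (minimum count 10, leaving 13005 genes), and the quasi-likelihood F-test, two-sided, on a model of group alone, with 4 residual degrees of freedom. Adjusted p are Benjamini-Hochberg values over all 13005 genes; "fell" and "rose" mean an adjusted p under 0.05. The SE of a log2 fold change was obtained by dividing its size by the root of F. TPM were computed from the deposited counts. At these depths 3 counts correspond to 0.294 to 0.333 CPM. Libraries of a group differed by more than sampling noise (chi-square per degree of freedom at least 13.3), and all were kept.

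The 8 members, the gene lists and the tests were chosen with earlier results of these data known. Named are all 8 markers, every context gene past the threshold, otherwise up to 3 genes a list with the smallest p, the sort checks and the 5 most alike profiles; the positive alveolar genes, Itga8, Lrp3 and the Ces1 copies were added after their values were seen. From the list of other alveolar fibroblast genes, 1 gene is not reported here. Alternatives were RLE factors, no composition factors, pan-fibroblast counts as library size, no filter, a minimum count of 50, DESeq2 1.42.0, limma-voom (limma 3.58.1), robust dispersion, the mean endothelial log2 CPM as covariate and leaving out each library. A fit without M3 and M4 was added after seeing the data. The fit was tested on simulated data in 10 draws. It recovered 14.8% of changes of 1.5 fold and 53.2% of changes of 2 fold. At 3 and 4 fold it recovered 83.6% and 88.6%. Of the simulated calls 8.6% were false. A gene that did not pass may therefore still differ by a fold of this small size, and some calls may be false.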

Additional observations from a re-analysis of the deposited data

How the results depend on the processing

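The count of called genes, 159 in the main fit, was 756 without a low-count filter, 435 with DESeq2, 255 with robust dispersion, 388 without M3 and M4, and between 24 (without M2) and 148 (without M4) when single libraries were left out. It was 27 without M5 and 42 without M6, where 1 group has 2 libraries. Other alternatives gave 146 to 196. Of the 8 markers, 2 were called in the main fit, 5 without a filter, 4 with DESeq2, 4 with robust dispersion, 1 with RLE factors, 1 with the minimum count of 50, 0 with pan-fibroblast counts as library size, and 0 to 2 with a library left out. The call of Npnt was lost with RLE factors (adjusted p = 0.0521), the minimum count of 50 (0.0536) and pan-fibroblast library size (0.0950), and that of Limch1 with pan-fibroblast library size (0.0615). The 6 called among the other alveolar genes became 1 to 5 with a library left out. The median log2 fold change of the 8 markers was -0.40 with RLE factors, -0.34 without composition factors, -0.35 with pan-fibroblast library size, -0.30 after adjustment for the endothelial level, and -0.38 when M3 and M4 were left out. Among the markers and the genes named by the rule, signs turned for 4, none of which passed: Inmt (0.015 with the endothelial covariate), Ces1d (0.0076 without composition factors, 0.065 with the covariate, -0.12 to 0.039 with a library left out), Lyz2 (-0.30 with the covariate, -0.084 to 0.74 with a library left out) and Cd68 (-1.02 with the covariate, -0.74 without M3 and M4, -0.38 to 0.59 with a library left out). The tallies of positive and negative fold changes in the context lists also shifted: the other alveolar genes had 2 to 4 positive and the pan-fibroblast genes 4 to 7 positive over the scalings, the covariate and the fit without M3 and M4. The adventitial genes had 15 to 16 positive. Some lists turned. With the covariate 4 of 10 alveolar type 2 genes and 0 of 2 leukocyte genes were positive, against 9 and 2 in the main fit. Without M3 and M4 1 of 5 mesothelial genes was positive, against 4 in the main fit. The cause of these shifts was not tested. No paired analysis was run because the labels give no pairing between the groups.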
